A study of Mus musculus with 8 samples.

Results

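The genes described here are the integrin subunits and a small set of other cell adhesion receptors, followed in fat cells exposed to 3 kinds of asbestos fibre. They were chosen by gene symbol, with earlier results of these data known. The symbols were those of integrin alpha and beta subunits, with Cd44, Vcam1, Icam1, Ncam1, syndecans Sdc1 to Sdc4 and cadherins Cdh2 and Cdh11. This gave 35 genes of the 35080 named on the array, and 29 of them had a probe well above background on both arrays of at least 1 group. The other 6, Icam1, Itga2, Itga9, Itgax, Itgb6 and Itgb8, had none and entered no test. All groups consisted of 3T3-L1 cells, an established mouse preadipocyte line, after differentiation into mature adipocytes. They received physiological saline as the control, or chrysotile, crocidolite or amosite at 10 mg/cm2 as the labels write it, and RNA was taken after 72 h. Each group had 2 one-colour Agilent arrays, and the labels do not say whether the 2 stem from separate cultures. The p-values then cover the spread between arrays alone, and that spread may be technical.

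Integrins are pairs of 1 alpha and 1 beta chain that span the cell membrane and tie the extracellular matrix outside to the actin cytoskeleton inside, through linker proteins such as talin and kindlin. The alpha chain largely sets which ligand is bound: collagen, laminin, the RGD motif of fibronectin and osteopontin, or receptors on other cells. Syndecans carry heparan sulphate chains and act beside integrins, CD44 binds hyaluronan, VCAM1 and ICAM1 on a cell's surface hold leukocytes through their integrins, and cadherins join like cells to each other. During fat cell differentiation preadipocytes are known to exchange a fibronectin-rich for a laminin-rich matrix, and integrin chains change with it.

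Between 56.2% and 62.8% of the 55681 probes on each array were well above background, and the 75th percentile of the signal ran from 340.1 to 453.4 intensity units. The 8 arrays lay on 1 slide, where position along one axis followed the group and along the other the replicate number, so slide position and group cannot be told apart. All 9 adipocyte markers (Adipoq, Fabp4, Plin1 and others) and all 9 preadipocyte and fibroblast markers were above background on all 8 arrays. Of 11 macrophage and leukocyte markers 6 were, while the macrophage lysozyme gene Lyz2 was above background on none, and of 5 endothelial markers 2 were, with the endothelial cadherin gene Cdh5 on none. In a culture, fewer cells of a kind and less RNA per cell cannot be told apart.

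Levels below are log2 signal relative to the 75th percentile of the same array, so 0 is that percentile and 1 unit is a 2-fold step, and differences are log2 differences of group means ± the standard error of the fit with n = 2 arrays per group. Against saline, Vcam1 was higher and Itga8 lower on both arrays of chrysotile and of crocidolite, and with amosite they differed by 0.16 and 0.01. Itgad was above background on the chrysotile and crocidolite arrays and on no saline or amosite array. Cd44 was higher on both chrysotile arrays and Itgae lower on both amosite arrays, each by less than 2-fold. No member passed 0.05 after limma with Benjamini-Hochberg adjustment over 23054 genes, in any of the 6 pairwise comparisons or in the F test over the 4 groups. No other gene passed either, and the smallest adjusted p over all genes was 0.121 with chrysotile, 0.147 with crocidolite and 0.147 with amosite against saline. Leaving out saline replicate 2 let 67, 51 and 58 genes pass in these 3 comparisons, with no member among them (smallest adjusted limma p of a member 0.157).

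At an unadjusted p under 0.05, 4 of 29 members differed with chrysotile, beside 5.49% of all genes tested. The count was 3 of 29 with crocidolite, beside 7.27%, and 1 of 29 with amosite, beside 2.66%. Itgad, which entered the test only through the groups where it was bright, is in the counts of chrysotile and crocidolite, and without it they were 3 and 2 of 28. With the replicate number as a block the counts were 7 (10.5% of all genes) with chrysotile and 8 (13.4%) with crocidolite, and without saline replicate 1 they were 8 (7.66%) and 8 (9.14%). The arrays of chrysotile and saline did not overlap for 13 members, beside 29.6% of all genes, and 10 of the 13 were higher, beside 14.2%. For crocidolite there were 9 such members (34.4% of all genes), 7 of them higher (14.6%), and for amosite 6 (21.1%), of which 4 were lower (12.9%). Itgad is again among those of chrysotile and crocidolite. The members' median difference was 0.05 with chrysotile, 0.08 with crocidolite and -0.05 with amosite, beside -0.01, -0.02 and -0.02 over all genes. A positive difference was found for 21, 19 and 11 of the 29 members, beside 48.8%, 46.3% and 44.6% of all genes. Centring each array on its median instead raised the median of all genes with crocidolite to 0.16, and the positive members then numbered 25 with crocidolite, beside 74.9% of all genes, and 16 with amosite, beside 63.2%.

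**Figure D1:**
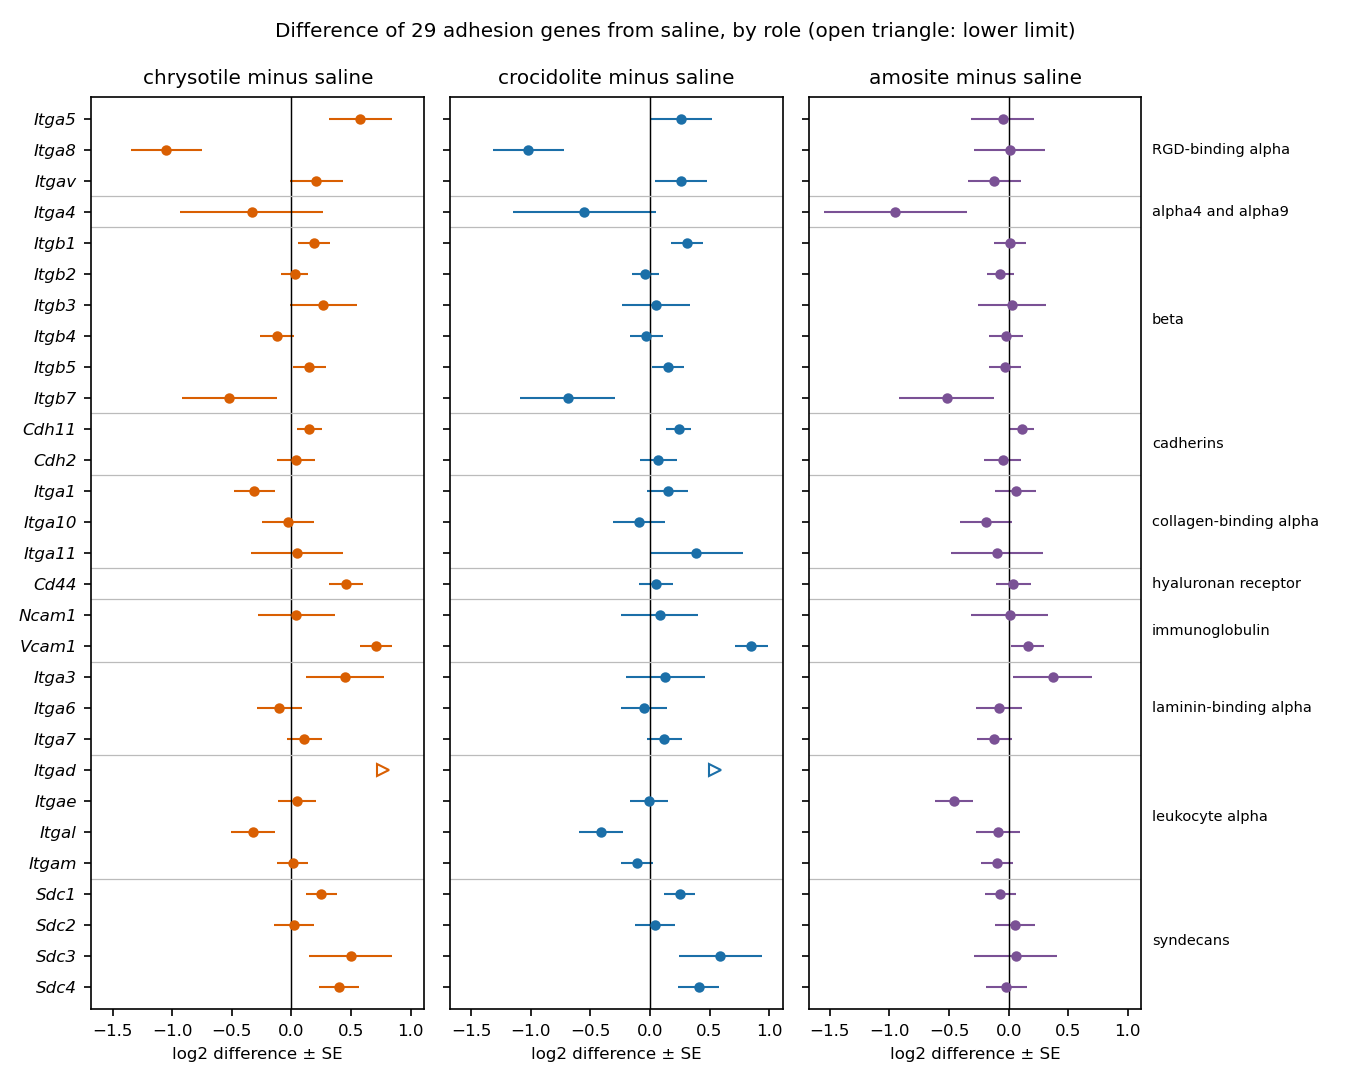
Log2 difference from saline (horizontal axis, point with bar of ± 1 standard error, n = 2 arrays per group) for the members, grouped by role, with a panel for each fibre. Vcam1 lies to the right and Itga8 to the left with chrysotile and crocidolite, and at 0.16 and 0.01 with amosite. Open triangles for Itgad, labelled as lower limits, set saline, which was below background, to the lowest signal among probes well above background. Probes below background can read higher, so these limits are not strict. Itgad has no point with amosite.

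Among the immunoglobulin-type receptors, Vcam1 stood out. It encodes a surface protein that leukocytes bind through integrins containing the Itga4 chain, and it is a classical target of inflammatory signalling. Its brighter probe matches chr3:115813216-115813275 of the mouse build mm9, and the first 30 of its 60 bases, all in lower case because no base is singled out, identify the stretch of transcript read:
Vcam1: tatatttttataggcaaatggtaaagaggt
The level of Vcam1 was 3.42 and 3.45 on the saline arrays, 4.04 and 4.24 with chrysotile, 4.39 and 4.17 with crocidolite, and 3.67 and 3.53 with amosite. All 4 chrysotile and crocidolite arrays lay above all saline and amosite arrays, and the amosite arrays lay just above saline. The difference from saline was 0.71 ± 0.137 with chrysotile (1.63-fold, 95% interval 0.37 to 1.04) and 0.85 ± 0.137 with crocidolite (1.8-fold, 0.51 to 1.18). With amosite it was 0.16 ± 0.137 (-0.17 to 0.5). The limma adjusted p was 0.846, 0.493 and 1, the first pair of comparisons being among those with an unadjusted p under 0.05. A second Vcam1 probe gave 0.64, 0.65 and 0.16. Icam1, the other leukocyte ligand, was not well above background on any array. Ncam1, a homophilic adhesion molecule of nerve and muscle, differed by 0.04, 0.08 and 0.01 from saline with the 3 fibres in the order chrysotile, crocidolite and amosite, each under its standard error. A second Ncam1 probe gave 0.11, 0.09 and 0.08. The dimmest gave -0.34, -0.18 and 0.14, the chrysotile value with an unadjusted limma p under 0.05.

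The leukocyte alpha subunits pair with Itgb2 or Itgb7 and are best known from white blood cells. Itgad, the alpha-D chain that binds ICAM and VCAM1 ligands, gave a dim signal from a single probe at chr7:135348901-135348960 (mm9), shown by its first 30 bases since the difference rests on this one stretch:
Itgad: ggggtcagcataaatttacatatggataag
Its level was -5.29 and -5.42 with saline, -4.14 and -3.6 with chrysotile, -4.2 and -3.98 with crocidolite, and -4.86 and -5.98 with amosite. It was well above background on both chrysotile and both crocidolite arrays and on no saline or amosite array, and the first pair of groups did not overlap the second. Saline was set to the lowest signal among probes well above background on each of its arrays. Itgad was then 1.7-fold higher with chrysotile and 1.46-fold higher with crocidolite. This is not a strict lower limit, since probes below background can read higher. On saline replicate 1 that lowest signal was -4.8, while a Cd44 probe below background read -4.48. With another background correction (normexp on the mean signal) the Itgad difference was 0.17 with chrysotile and 0.1 with crocidolite. Since Itgad entered the test only through the groups where it was bright, no p-value is read for it. No difference is given between amosite and saline, both below background.

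Itgae, the chain that lets lymphocytes hold E-cadherin, was at -2.86 and -2.97 with saline, -3.04 and -2.68 with chrysotile, -3.05 and -2.81 with crocidolite, and -3.4 and -3.35 with amosite. The 2 amosite arrays were the lowest of the 8, and the other groups overlapped each other. The difference with amosite was -0.46 ± 0.161 (1.37-fold lower, limma adjusted p = 1, unadjusted under 0.05). Itgal, the LFA-1 alpha chain, was at -1.21 and -0.76 with saline, -1.2 and -1.4 with chrysotile, -1.46 and -1.34 with crocidolite and -1.19 and -0.95 with amosite. Both crocidolite arrays lay below both saline arrays, while chrysotile and amosite overlapped saline. A neighbouring Itgal probe gave larger differences, -0.93 with chrysotile and -0.99 with crocidolite, and the remaining one -0.34 and -0.25. Itgam, the alpha-M chain of macrophages and granulocytes, ran from 5.74 to 6.04 over the 8 arrays. It differed from saline by 0.01, -0.11 and -0.1 with chrysotile, crocidolite and amosite. Its other probes read far lower, at -4.23 and -3.63 on saline replicate 1. They gave -0.05, 0.32 and -0.14, and -0.08, -0.16 and 0.36, so the sign differed between probes with each fibre. Which probe follows Itgam was not tested. Itgax, the alpha-X chain of dendritic cells, was above background on 1 array of 8.

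Macrophage markers were followed beside these chains. Cd68, a lysosomal glycoprotein abundant in macrophages, differed by 0.6 ± 0.169 with chrysotile and 0.41 ± 0.169 with crocidolite (both at an unadjusted p under 0.05), and the lipopolysaccharide co-receptor gene Cd14 by 0.7 ± 0.3 and 0.96 ± 0.3 (the latter at an unadjusted p under 0.05). None passed the limma adjustment. Csf1r, the receptor for macrophage colony-stimulating factor, differed by -0.45, -0.37 and -0.46 with the 3 fibres, each ± 0.191. All fibre arrays lay below both saline arrays, and the amosite difference had an unadjusted limma p under 0.05. Mpeg1 differed by 0.96, 0.99 and -0.31, each ± 0.824, and its arrays overlapped saline. The signal of the 11 markers was summed in units of each array's 75th percentile. The sum was 13.5 to 13.6 with saline, 11.9 to 13 with chrysotile, 12.6 to 12.9 with crocidolite and 10.7 to 12.3 with amosite. It rests mostly on its brightest genes, Csf1r (2.92 and 2.7 with saline) and Cd3e (2.11 and 2.09). The pan-leukocyte gene Ptprc was above background on 4 arrays, none of them saline, but its levels lay near background. They were -5.03 and -4.72 with saline, -4.38 and -5.72 with chrysotile, -4.81 and -4.82 with crocidolite, and -4.57 and -4.59 with amosite. Chrysotile and crocidolite thus overlapped saline. The macrophage genes Adgre1, Fcgr1 and Tyrobp did not pass the background filter. Their part in the values of Itgad and Itgal was not tested.

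Among the RGD-binding chains, Itga8 was lower with chrysotile and crocidolite. It pairs with Itgb1, binds fibronectin, osteopontin and nephronectin, and is known from mesenchymal and contractile cells. Its single probe lies at chr2:12028462-12028521 (mm9) and begins with these bases, shown because the difference rests on 1 probe:
Itga8: catacattggtattctcgaggagtctatct
Its level was -1.9 and -2.04 with saline, -2.57 and -3.48 with chrysotile, -3.02 and -2.96 with crocidolite, and -2.15 and -1.78 with amosite. All 4 chrysotile and crocidolite arrays lay below all 4 saline and amosite arrays, and chrysotile replicate 2 was the lowest of the 8. Itga8 was 2.07-fold lower with chrysotile (-1.05 ± 0.299) and 2.02-fold lower with crocidolite (-1.02 ± 0.299), while amosite differed by 0.01 ± 0.299. The limma adjusted p was 0.897, 0.607 and 1, with an unadjusted p under 0.05 for the first pair. With another background correction (normexp on the mean signal) the difference was -0.54 with both chrysotile and crocidolite, and without chrysotile replicate 2 it was -0.6 with chrysotile.

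Itga5, the fibronectin receptor chain, was at 0.43 and -0.25 with saline, 0.64 and 0.68 with chrysotile, 0.5 and 0.21 with crocidolite, and 0.25 and -0.19 with amosite. Both chrysotile arrays lay above every other array, and the saline arrays were far apart. The difference was 0.58 ± 0.263 (limma adjusted p = 0.897), and it was 0.24 without saline replicate 2 and 0.92 without saline replicate 1. With the replicate number as a block the adjusted p was 0.448, with an unadjusted p under 0.05. Itgav, which joins several beta chains to bind vitronectin and to release TGF-beta, differed by 0.21, 0.26 and -0.12, each with a standard error of 0.221, and its groups overlapped saline.

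**Figure D2:**
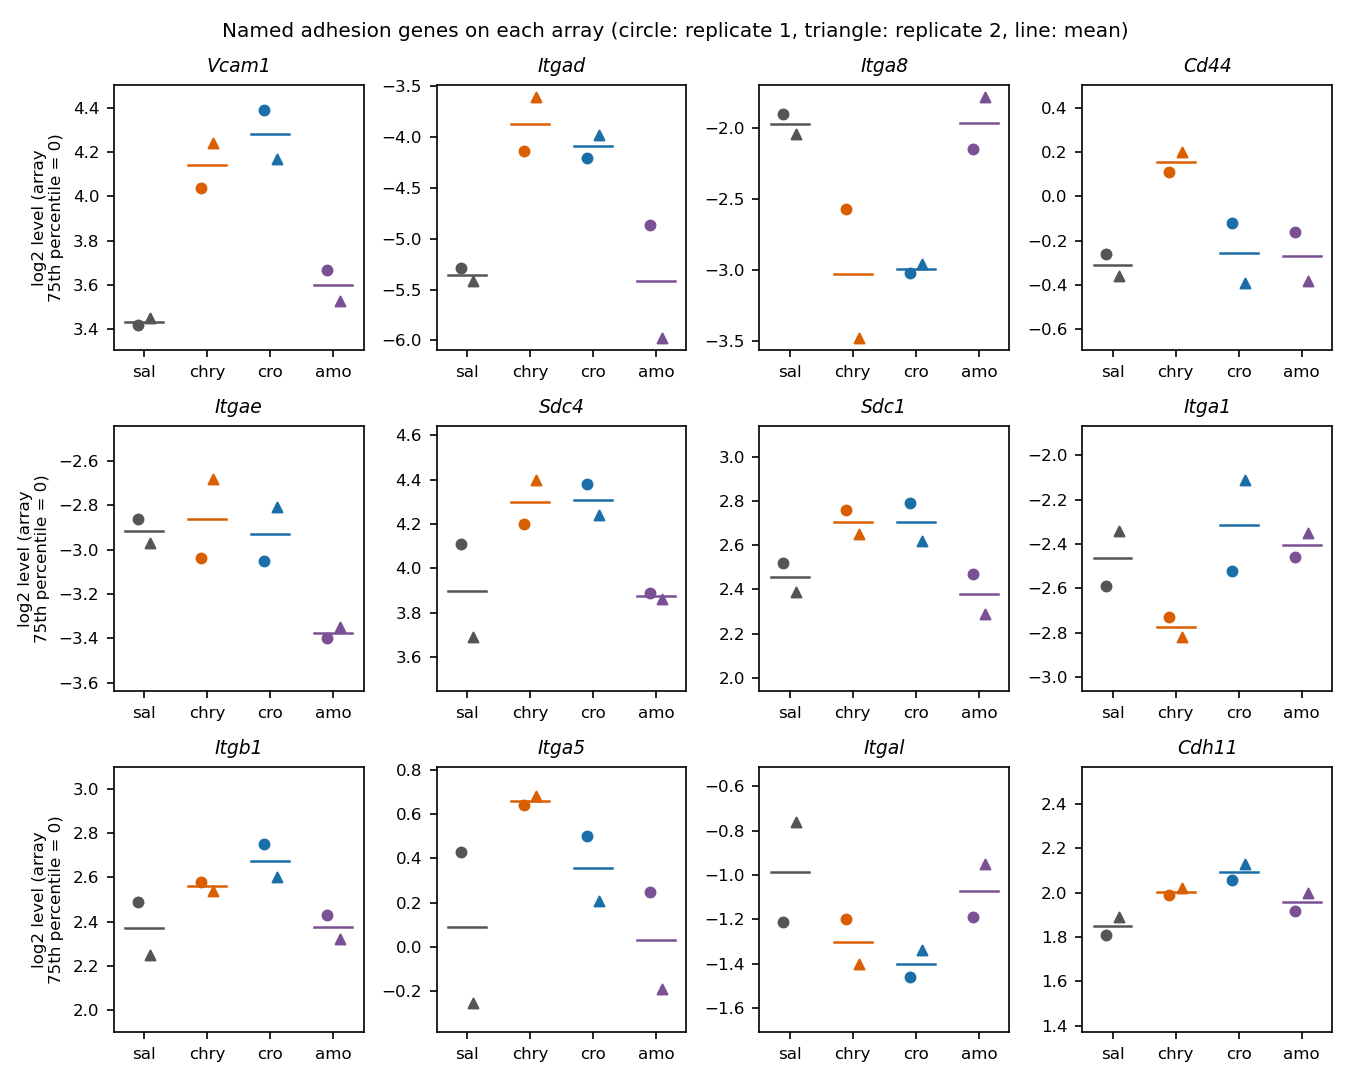
Log2 level relative to the 75th percentile of the array (vertical axis) on each of the 8 arrays for 12 members, with saline (sal), chrysotile (chry), crocidolite (cro) and amosite (amo) side by side, circles for replicate 1, triangles for replicate 2 and a line at the mean. The vertical range differs between panels; the chrysotile and crocidolite points of Vcam1, Itgad and Itga8 are set apart from those of saline and amosite, where Itgad was below background.

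The collagen-binding chains did not move as a group. Itga1, a receptor for basement membrane collagen, was at -2.59 and -2.34 with saline, -2.73 and -2.82 with chrysotile, -2.52 and -2.11 with crocidolite and -2.46 and -2.35 with amosite. Both chrysotile arrays were the lowest of the 8 and the other groups overlapped. The difference from saline was -0.31 ± 0.173 (limma adjusted p = 0.911) and that from crocidolite -0.46 ± 0.173 (adjusted p = 1, unadjusted under 0.05). A second Itga1 probe gave -0.05 with chrysotile and -0.37 with crocidolite against saline. Itga10, a cartilage collagen receptor, differed by -0.03, -0.09 and -0.19. Itga11, a fibroblast receptor for fibrillar collagen, differed by 0.05, 0.39 and -0.1, each with a standard error of 0.387.

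The laminin-binding chains Itga3, Itga6 and Itga7, of which Itga6 is the chain associated with adipocyte differentiation, passed no test. Itga6 was at 5.6 and 5.82 with saline, 5.44 and 5.79 with chrysotile, 5.54 and 5.77 with crocidolite and 5.48 and 5.8 with amosite. In each group replicate 2 was the higher, and the 4 groups overlapped, with differences from saline of -0.1, -0.05 and -0.08. A dimmer Itga6 probe gave 0.3, 0.23 and -0.02, the opposite sign with chrysotile and crocidolite. Itga7 differed by 0.11, 0.12 and -0.12, and the dim Itga3 by 0.45, 0.13 and 0.37 with a standard error of 0.33. Itga4, the chain that binds VCAM1 and fibronectin, was dim, with differences of -0.33, -0.55 and -0.95 and a standard error of 0.6, and only saline had both arrays above background.

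Of the 8 beta chains, 6 passed the background filter. Itgb1, the common partner of most matrix-binding alpha chains, was at 2.49 and 2.25 with saline, 2.58 and 2.54 with chrysotile, 2.75 and 2.6 with crocidolite and 2.43 and 2.32 with amosite. All 4 chrysotile and crocidolite arrays lay above all saline and amosite arrays by a small margin. The difference with crocidolite was 0.31 ± 0.132 (limma adjusted p = 0.699, or 0.322 with the block) and with chrysotile 0.19 ± 0.132. A dimmer Itgb1 probe gave -0.19 with chrysotile and 0.01 with crocidolite. Itgb2, the leukocyte partner of Itgal and Itgam, differed by at most 0.07 from saline with any fibre. Itgb3 and Itgb5, partners of Itgav, differed by 0.27 and 0.15 with chrysotile, and by 0.05 and 0.15 with crocidolite. Itgb4, the hemidesmosome chain, differed by -0.12 with chrysotile, and the dim Itgb7 by -0.52, -0.69 and -0.52 with a standard error of 0.4.

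Cd44, the main hyaluronan receptor, was at -0.26 and -0.36 with saline, 0.11 and 0.2 with chrysotile, -0.12 and -0.39 with crocidolite, and -0.16 and -0.38 with amosite. The 2 chrysotile arrays lay above the other 6, which overlapped. The difference was 0.46 ± 0.145 with chrysotile (1.38-fold, limma adjusted p = 0.897, unadjusted under 0.05), 0.05 with crocidolite and 0.04 with amosite. A second bright Cd44 probe gave 0.72 with chrysotile, 0.02 with crocidolite and -0.05 with amosite, and another was above background only on the chrysotile arrays and gives no difference. Has2, which synthesizes hyaluronan, differed by 0.52 ± 0.278 with chrysotile and 0.72 ± 0.278 with crocidolite (limma adjusted p = 0.911 and 0.674). Msn, the moesin that links CD44 to actin, differed by 0.36 and 0.23 with these fibres.

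The 4 syndecans had positive differences with chrysotile and crocidolite. Sdc4, a partner of integrins in focal adhesions, was at 4.11 and 3.69 with saline, 4.2 and 4.4 with chrysotile, 4.38 and 4.24 with crocidolite, and 3.89 and 3.86 with amosite. Its chrysotile and crocidolite arrays lay above all others, and the saline arrays spread around those of amosite. The difference from saline was 0.4 ± 0.171 with chrysotile and 0.41 ± 0.171 with crocidolite (limma adjusted p = 0.897 and 0.69). Without saline replicate 2 these were 0.19 and 0.2, and without saline replicate 1 they were 0.61 and 0.62. Sdc1, the epithelial and plasma cell syndecan that also binds lipoproteins, was at 2.52 and 2.39 with saline, 2.76 and 2.65 with chrysotile, 2.79 and 2.62 with crocidolite, and 2.47 and 2.29 with amosite. Again the chrysotile and crocidolite arrays lay above all others, and the difference was 0.25 ± 0.13 with both fibres. With the replicate block both Sdc1 comparisons had an unadjusted p under 0.05 (limma adjusted p = 0.45 and 0.341). Sdc3 differed by 0.5 and 0.59 ± 0.348, also under 0.05 unadjusted only with the block, and Sdc2, the syndecan of fibroblasts, by 0.02 and 0.04.

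Because the chrysotile and crocidolite arrays of Sdc1 and Sdc4 were set apart in the same way, their promoters were read from RefSeq (build GRCm38.p6). The table held a promoter for 22 of the 35 members, and not for Itga6, Itga7, Itgad, Itgae, Itgal, Itgb2, Itgb3, Itgb4, Vcam1, Ncam1, Sdc2, Cdh2 and Cdh11. In the 250 bases before the start of transcription, the NF-kB consensus was found on either strand in 2 of the 24 promoters of these members, those of Sdc1 and Sdc4, beside 7.25% of 32851 promoters. Itga8 and Itgb1, whose chrysotile and crocidolite arrays were also set apart from saline and amosite, had no NF-kB match. The AP-1 motif TGANTCA was found in 1 (Itgax), beside 6.75%, and the TEAD motif GGAATG in 2 (Itga10 and Itgb1), beside 12.6%, each on either strand and with no overlap between motifs in a member. The windows are shown 5′ to 3′ on the strand of the gene, with the match in capitals, which begins at -134 from the start in Sdc1 (chr12:8771146-8771395, plus strand) and at -82 in Sdc4 (chr2:164443189-164443438, minus strand):
Sdc1: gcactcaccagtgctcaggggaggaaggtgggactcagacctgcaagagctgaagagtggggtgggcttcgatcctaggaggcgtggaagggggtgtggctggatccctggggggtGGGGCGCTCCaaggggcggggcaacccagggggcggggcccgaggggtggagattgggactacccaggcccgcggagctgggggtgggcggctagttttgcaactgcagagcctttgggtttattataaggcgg
Sdc4: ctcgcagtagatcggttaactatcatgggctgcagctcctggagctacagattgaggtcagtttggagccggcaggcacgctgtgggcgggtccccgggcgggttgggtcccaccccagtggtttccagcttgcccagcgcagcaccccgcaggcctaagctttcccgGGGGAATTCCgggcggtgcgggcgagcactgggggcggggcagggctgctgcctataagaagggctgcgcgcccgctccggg
A match of letters is a description and not a bound site, and the share in members was close to that of all promoters.

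Of the cadherins, Cdh11, the mesenchymal cadherin, was at 1.81 and 1.89 with saline, 1.99 and 2.02 with chrysotile, 2.06 and 2.13 with crocidolite and 1.92 and 2 with amosite. All 6 fibre arrays lay above both saline arrays. The difference was 0.15, 0.24 and 0.11, each ± 0.106, the limma adjusted p was 0.922, 0.701 and 1, and a second probe gave 0.06, 0.07 and 0.24. Cdh2, the N-cadherin of mesenchymal cells, differed by at most 0.07 from saline. The 4 catenins that anchor cadherins ranged from -0.09 to 0.22 with chrysotile, and none had an unadjusted p under 0.05.

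Of the 29 members, 12 had several probes above background, which read different stretches of the transcripts. Among the members described by array, and leaving out the Cd44 probe that was below background with saline, the probes of Vcam1, Itgal and Cdh11 shared 1 direction with each fibre, and those of Cd44 did so with chrysotile and crocidolite. The probes of Itgb1 differed in sign with chrysotile, those of Itga6 with chrysotile and crocidolite, those of Itga1 with crocidolite and those of Cd44 with amosite, so these values belong to the brightest probe only. The same holds for Itgam, Ncam1 and Cdh2 with chrysotile and crocidolite, Itga10 with crocidolite, and Itgam and Itgav with amosite.

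**Figure D3:**
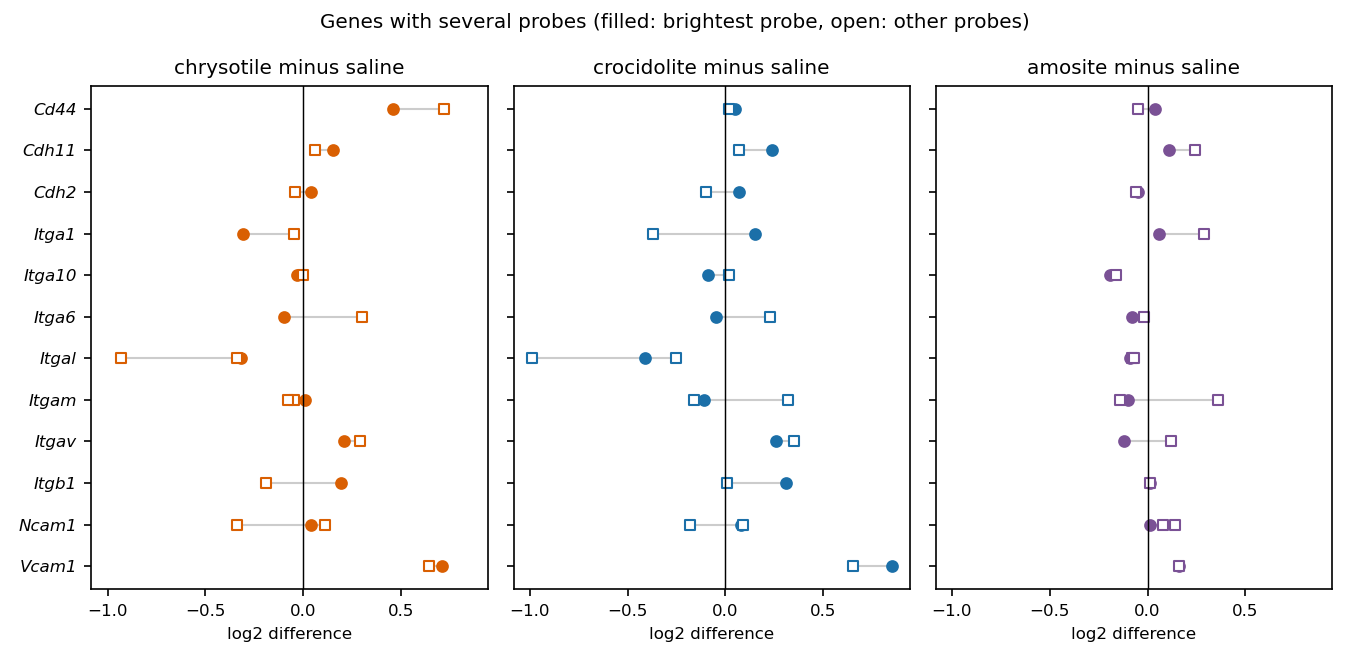
Log2 difference from saline (horizontal axis) for every probe above background of the 12 members with several, apart from the Cd44 probe below background with saline, with a panel for each fibre, filled circles for the brightest probe and open squares for the others. The probes of Vcam1 lie together at 0.64 and 0.71 with chrysotile, while those of Itgal run from -0.93 to -0.32.

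Among the genes around the receptors, the ligands of integrins held the largest differences with chrysotile and crocidolite. With amosite they ranged from -0.3 to 0.39 and other adhesion receptors reached 0.64. The lists were chosen with earlier results of these data known, so this order is a description only. Of 20 matrix ligands 19 were measured. At an unadjusted p under 0.05, 2 were higher and 1 lower with chrysotile, beside 2.82% and 2.66% of all genes. The counts were the same with crocidolite, beside 2.86% and 4.41%. With amosite there were none, beside 2.66% in either direction. There were 0 adjusted calls. Spp1, which encodes osteopontin, a ligand of Itgav, Itga5, Itga8 and Itga4 pairs, was at 0.83 and 1.18 with saline, 2.92 and 3.92 with chrysotile, 2.77 and 2.88 with crocidolite, and 1.47 and 1.33 with amosite. No group overlapped saline, and amosite lay closest to it. Ccn1, a matricellular protein bound by several integrins, differed by 0.94 ± 0.383 and 1.35 ± 0.383 with chrysotile and crocidolite (limma adjusted p = 0.897 and 0.59). Ccn2, the related connective tissue growth factor, differed by 1.42 ± 0.916 and 1.77 ± 0.916 (limma adjusted p = 0.912 and 0.729), its arrays did not overlap saline, and it had an unadjusted p under 0.05 only with the replicate block. Postn, the matrix protein periostin, differed by -0.45 ± 0.173 and -0.61 ± 0.173 (limma adjusted p = 0.897 and 0.59). The median of the list was 0.1 with chrysotile, 0.17 with crocidolite and -0.13 with amosite.

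Of 26 genes of focal adhesions and integrin linkers 25 were measured, with medians of 0.08, 0.12 and -0.04 for chrysotile, crocidolite and amosite. Parvb, which links integrin-linked kinase to actin, differed by 0.65 ± 0.261 with chrysotile (limma adjusted p = 0.897), and the docking protein gene Bcar1 by 0.31 ± 0.114 with crocidolite (adjusted p = 0.667). Each was the only one of the 25 under 0.05 unadjusted with that fibre, beside 5.49% and 7.27% of all genes. Talins and vinculin differed little, with -0.16 for Tln1, -0.21 for Tln2 and 0.08 for Vcl with chrysotile. The 14 partners of hyaluronan and heparan sulphate had medians of 0.04, -0.04 and -0.07. Has2 was the only one under an unadjusted p of 0.05, with crocidolite, beside 7.27% of all genes. Of 11 further adhesion receptors 8 were measured. Cd47, the thrombospondin receptor that sits beside integrins, differed by 0.28 ± 0.115 with chrysotile (limma adjusted p = 0.897), and Madcam1, the ligand of Itgb7 integrins, by 0.47 ± 0.146 with amosite (adjusted p = 1).

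**Figure D4:**
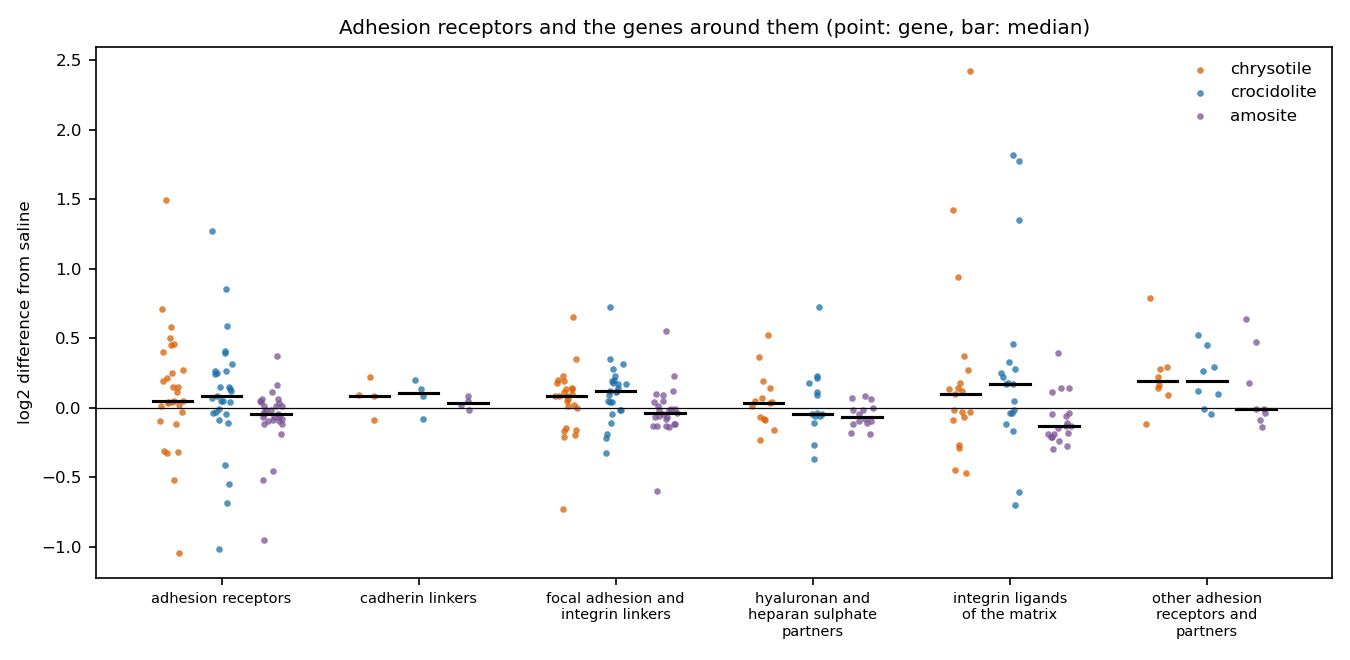
Log2 difference from saline (vertical axis) of each measured gene in the adhesion receptors and in 5 lists of genes around them, with colours for the fibres, 1 point per gene and a black bar at the median. Itgad and the linker Fermt3 are included although below background with saline. Itgad was also below background with amosite and Fermt3 with chrysotile, so those points are not read as differences. Medians lie between -0.13 and 0.19, and the highest point is Spp1 at 2.42 with chrysotile.

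The fibres were also compared with each other. Chrysotile against amosite gave 7 members with an unadjusted p under 0.05, 6 of them higher (2.62% of all genes higher, 4.33% in either direction), and none adjusted. They were Vcam1 (0.54 ± 0.137), Itgae, Cd44, Sdc4 and Sdc1 higher and Itga8 lower (-1.06 ± 0.299), all with a limma adjusted p of 1, and Itgad, without which the count was 6 of 28. Crocidolite against amosite gave 6, beside 5.12% of all genes, with Vcam1 (0.68 ± 0.137), Itgae, Sdc4 and Sdc1 higher and Itga8 lower, the smallest limma adjusted p being 0.873, and Itgad, without which it was 5 of 28. With amosite set to the lowest signal among probes well above background, Itgad was 1.87-fold higher with chrysotile and 1.61-fold higher with crocidolite. Without 1 array at a time these counts ranged from 2 to 8 (2.29% to 6.25% of all genes) and from 2 to 7 (3.04% to 6.87%), with 2 and 2 without amosite replicate 2, 3 for the first without chrysotile replicate 2, and 3, 2 and 3 for the second without crocidolite replicate 1, crocidolite replicate 2 and amosite replicate 1. Chrysotile and crocidolite differed in 2 members, beside 2.76% of all genes, Cd44 (0.41 ± 0.145, limma adjusted p = 1) and Itga1, and in 0 without any 1 chrysotile array or crocidolite replicate 2. For Vcam1 the interval of their difference was -0.47 to 0.19 and for Itga8 -0.76 to 0.69, which does not show that the 2 fibres act alike.

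Among the markers of less differentiated cells, 2 of 9 had an unadjusted limma p under 0.05 with chrysotile and with crocidolite, beside 5.49% and 7.27% of all genes: Ly6a, the Sca-1 antigen of stromal precursors (0.82 ± 0.271 and 0.78 ± 0.271), and S100a4, a calcium-binding protein of fibroblasts (1.25 ± 0.407 and 1.06 ± 0.407). S100a4 differed by 0.91 ± 0.407 with amosite too, where both arrays lay above saline. The other 7 ran from -0.23 (Dlk1, the preadipocyte factor) to 0.43 (Thy1, a fibroblast surface antigen) with chrysotile and from -0.38 to 0.29, for the same pair of genes, with crocidolite. The summed signal of the 9 ranged from 674 to 711 with saline, 632 to 775 with chrysotile, 620 to 760 with crocidolite and 595 to 760 with amosite. The sum of the 9 adipocyte markers ranged from 2790 to 3540 with saline, 2860 to 3010 with chrysotile, 2790 to 2940 with crocidolite and 2850 to 2930 with amosite. Their part in the receptors' values was not tested.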

How the data were processed

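The values are intensities, gProcessedSignal of the scanner files, which the authors read with Agilent Feature Extraction 10.7 per the submitters' processing notes and 10.7.1.1 per the file headers. The deposited value table held the same values. Controls and flagged spots (99 to 183 on an array) did not enter, repeated spots of a probe were averaged, and log2 of the deposited intensity minus the array's 75th percentile was taken. A gene was represented by its brightest probe among those well above background on both arrays of some group, giving 23054 genes; 9 probes lacking a value on an array stayed out. limma 3.58.1 in R 4.3.3 fitted the 4 groups together (4 residual and 2.22 prior degrees of freedom), two-sided, with Benjamini-Hochberg adjustment at 0.05. An exact permutation of 2 against 2 arrays cannot go below 0.333. Arrays with the same replicate number deviated together, with correlations of 0.25 to 0.45 in all 6 pairs of groups, so the number was also fitted as a block. In data simulated for chrysotile against saline, 22 of 67 genes changed by a log2 value of 1 and 64 of 67 changed by 2 were recovered, with 6 false calls.

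The members and lists were chosen with earlier results of these data known. Members were described on every array where an unadjusted p was under 0.05 or a difference of 2-fold without overlap was found against saline, and then by the smallest F p, up to 12. Itga6, Sdc3 and the other members given by value or array were chosen after their values were seen. Tried instead were the replicate block, normexp (offset 50), quantile normalization, median centring, other filters, the mean of probes, another prior, 2 groups alone, the deposited table and leaving out each array. Probe positions are those of the files (mm9), and their exons or UTRs were not annotated here. With 2 arrays per group, their number limits the precision.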

Additional observations from a re-analysis of the deposited data

How the results depend on the processing

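No member passed an adjusted p of 0.05 in limma under any of the 18 other settings. Vcam1 with chrysotile and crocidolite kept its direction in each and with its second probe (0.6 to 0.81 and 0.65 to 1.03). The 0.65 is that probe, added after seeing the data. Itga8 kept its direction in each setting too (-1.51 to -0.54 and -1.09 to -0.54). Itgad, below background with saline, could not be given with only probes bright on all arrays, where chrysotile and crocidolite against amosite had 7 and 5 of 26 members with an unadjusted p under 0.05, beside 4.3% and 5.17% of all genes. The block with the replicate number gave 7 members with an unadjusted p under 0.05 for chrysotile and 8 for crocidolite (10.5% and 13.4% of all genes), and changed no adjusted call of a member. Normexp gave 8, 7 and 0 for chrysotile, crocidolite and amosite (7.94%, 13.5% and 2.35% of all genes). Quantile normalization let 3, 2 and 2 genes pass against saline and 2 in the F test, with a members' median of -0.02 for amosite. Median centring let 2, 1 and 2 genes pass and 1 in the F test, gave 8 members for crocidolite (8.47% of all genes), 0 for amosite (2.32%) and 1 for chrysotile against crocidolite (2.29%), and members' medians of 0.26 for crocidolite and 0.01 for amosite; it put the median of all genes at 0.16 with crocidolite against saline, -0.13 with chrysotile against crocidolite and 0.11 with crocidolite against amosite. The mean of all probes gave a median of -0.03 for amosite. That setting, the trended and robust prior and the 2 groups fitted alone each gave 1 member for chrysotile against crocidolite (1.66% to 3.31% of all genes), and the prior gave 6 for crocidolite (7.11%) and 0 for amosite (1.67%).

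Leaving out 1 array at a time, the genes passing ranged from 0 to 67 for chrysotile, 0 to 51 for crocidolite and 0 to 58 for amosite against saline, 0 to 1 for chrysotile against crocidolite and against amosite, and 0 to 11 in the F test. Members with an unadjusted p under 0.05 ranged from 3 to 8, 2 to 8 and 0 to 1 against saline, 0 to 2 for chrysotile against crocidolite, 2 to 8 for chrysotile against amosite and 2 to 7 for crocidolite against amosite, beside 3.13% to 11.4%, 3.7% to 12.7%, 2% to 9.57%, 2.07% to 4.06%, 2.29% to 6.25% and 3.04% to 6.87% of all genes. The members' medians ranged from 0.03 to 0.16, 0.01 to 0.16 and -0.08 to 0.07. The lone array of a group is then assumed to vary like the other groups.

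Only differences that passed no test changed sign. With normexp these were Itgae with chrysotile (-0.12), Itga1 with crocidolite (-0.01), and with amosite Cd44 (0), Itga1 (-0.03) and Itgb1 (-0.01). Quantile normalization turned Itgae with crocidolite (0.1). Median centring turned Itgae with crocidolite (0.17), and with amosite Sdc4 (0.04) and Itga5 (0.01). The mean of probes, which takes in a Cd44 probe below background in these groups, turned Cd44 with crocidolite (-0.26) and amosite (-0.16), and Itga1 with crocidolite (-0.11). Other probes, a comparison added after seeing the data, turned Itgb1 with chrysotile (-0.19), Cd44 with amosite (-0.05) and Itga1 with crocidolite (-0.37). Leaving out 1 array, Itgae with chrysotile ran from -0.12 to 0.23. With crocidolite Cd44 ran from -0.09 to 0.19, Itgae from -0.13 to 0.11, Itga1 from -0.06 to 0.35 and Itga5 from -0.08 to 0.61. With amosite Itga8 ran from -0.17 to 0.2, Cd44 from -0.07 to 0.14, Sdc4 from -0.24 to 0.19, Sdc1 from -0.16 to 0.02, Itga1 from -0.06 to 0.18, Itgb1 from -0.11 to 0.13, Itga5 from -0.39 to 0.29 and Itgal from -0.31 to 0.14. The cause of these shifts was not tested. Dim members such as Itgad, Itga4, Itga3 and Itgb7 lie near background, which limits their values.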
